A study of Mus musculus with 20 samples.

Results

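The genes described here are the airway secretory and mucosal defence genes Scgb1a1, Scgb3a1, Scgb3a2, Muc5b, Muc5ac, Cyp2f2, Plunc (now Bpifa1), Pigr and Reg3g, 9 in all, in the lungs of mouse dams given carbon black during pregnancy. A gene was taken where the array's annotation carried its symbol, older or current, and 8 of the 9 were found, each with a single spot sequence, out of 41174 different spot sequences on the array. All 8 passed the filter on dim spots, which 30142 sequences passed in all. No spot carried the name Muc5ac.

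The lungs came from 20 female, time-mated C57BL/6BomTac mice, 5 per group, with no genetic change in any group. Control dams received Milli Q water into the trachea on gestation days 7, 10, 15 and 18. On the same days low-dose dams received 2.75 µg of Printex 90 carbon black, a nanoparticle soot product, to a total of 11 µg, medium-dose dams 13.5 µg to a total of 54 µg, and high-dose dams 67 µg to a total of 268 µg. All dams, controls included, had thus been pregnant, had been instilled 4 times and had weaned a litter before the lungs were taken 26 to 27 days after exposure. Lung RNA was labelled with Cy5 and hybridised against 1 commercial universal mouse reference RNA in Cy3, with 1 array per dam. Levels are given as the log2 ratio of lung over reference, a scale on which 1 unit is a 2-fold difference. Numbers beside a dose name are the animal numbers, and per-dam values follow rising animal number.

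The conducting airways of the mouse are lined by club cells, which secrete small proteins of the secretoglobin family, and by ciliated cells, with mucous cells and glands towards the trachea. The main polymeric airway mucin at rest is Muc5b, whereas Muc5ac is known as the mucin that mucous cells make under allergic stimulation. Transport of secretory IgA across the epithelium by Pigr, and secreted bactericidal proteins such as Reg3g, form the mucosal defence of the same surface.

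Sequences are shown for some of the genes that varied together between dams, and for Cyp2f2. The ratio of Cyp2f2 had no passing correlation with theirs, though its Cy5 signal passed with those of Scgb3a1 and Muc5b. The 250 bases before the annotated start, from RefSeq on GRCm38.p6 and read along the gene's strand, lay at chr11:49663345-49663594 for Scgb3a1 (plus strand), chr2:154142630-154142879 for Bpifa1 (plus strand), chr6:78468875-78469124 for Reg3g (minus strand) and chr7:27119705-27119954 for Cyp2f2 (plus strand). Capitals mark matches, on either strand, to the TATA box TATAAA, the NKX2-1 core CTCAAG, the FOXA core TGTTTNC, the STAT motif TTCNNNGAA or the AP-1 motif TGANTCA, and no match overlapped another.
Scgb3a1: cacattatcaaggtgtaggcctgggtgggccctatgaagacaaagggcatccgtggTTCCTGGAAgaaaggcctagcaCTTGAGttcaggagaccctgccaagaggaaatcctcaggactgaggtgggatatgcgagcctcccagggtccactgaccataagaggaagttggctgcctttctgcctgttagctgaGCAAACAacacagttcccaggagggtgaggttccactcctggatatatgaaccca
Bpifa1: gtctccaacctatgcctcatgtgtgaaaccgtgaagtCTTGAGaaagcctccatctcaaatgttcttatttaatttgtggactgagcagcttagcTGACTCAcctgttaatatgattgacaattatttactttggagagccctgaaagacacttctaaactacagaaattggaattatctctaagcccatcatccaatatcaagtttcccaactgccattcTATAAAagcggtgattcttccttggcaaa
Reg3g: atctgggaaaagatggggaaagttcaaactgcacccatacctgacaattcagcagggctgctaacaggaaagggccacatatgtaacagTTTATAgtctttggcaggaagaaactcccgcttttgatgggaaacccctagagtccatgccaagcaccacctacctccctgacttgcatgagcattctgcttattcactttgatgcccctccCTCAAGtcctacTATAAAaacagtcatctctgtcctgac
Cyp2f2: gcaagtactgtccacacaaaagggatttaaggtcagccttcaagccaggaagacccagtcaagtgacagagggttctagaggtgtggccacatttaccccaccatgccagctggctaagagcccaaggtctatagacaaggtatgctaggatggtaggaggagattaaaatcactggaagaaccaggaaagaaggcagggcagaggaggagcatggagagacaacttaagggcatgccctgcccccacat
The NKX2-1 core was present once in each of the Scgb3a1, Bpifa1 and Reg3g windows, and was held by 13.3% of all 32851 windows of this length. The TATA box was found in the Bpifa1 and Reg3g windows, against 12.4% of all windows. The FOXA core and the STAT motif were found in the Scgb3a1 window, against 17.8% and 7.02% of all windows, and the AP-1 motif in the Bpifa1 window, against 6.75%. None of the 5 motifs was found in the windows of Cyp2f2 or Pigr. These matches describe letters and were not tested as binding sites. No window is given for Muc5b, Scgb1a1 or Scgb3a2, so the windows do not compare complete sets of genes.

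The mucin spots could be separated by sequence. The Muc5b spot lay at chr7:138300110-138300169 on mm7, the build in the array annotation. A spot described there as similar to mucin 5AC, A_51_P102883, lay at chr7:138246168-138246227, and another, A_51_P426130, at chr7:138237950-138238009. The first 30 of the 60 bases of each are given.
Muc5b: tttggcctcattctctgtgagagcctgtgg
A_51_P102883: ctgaatactgctgctgtcccaaccaaaagg
A_51_P426130: gacttctcctgtgacattatcccataagcc
A_51_P102883 was well above background in Cy5 on 20 of 20 arrays and A_51_P426130 on 11. Neither carried the symbol Muc5ac in the annotation, so neither was counted as that gene.

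None of the 8 genes passed the test at any dose. In the limma fit over all 30142 spot sequences, with Benjamini-Hochberg adjustment at 0.05, 408 sequences passed at the high dose (1.35%), of which 214 were higher (0.71%) and 194 lower (0.644%), and 0 of the 8 genes were among them. The split depended on the scaling, with 17 higher and 1 lower under normexp and loess, 12 and 1 in the software log ratio, 29 and 0 in Cy5 alone, and 169 and 253 with arrays centred on their median. At the medium and at the low dose 1 sequence passed (0.00332% in each), and along the 4 dose steps 506 passed (1.68%), again with none of the 8 genes. Unadjusted p-values under 0.05 were reached by 5220 sequences at the high dose and by 0 of the 8 genes, whose lowest unadjusted p was 0.126 (adjusted p = 0.43, Pigr). All 8 genes overlapped between high-dose and control dams, between medium-dose and control dams and between low-dose and control dams. The share of all sequences that overlapped was not counted, so this overlap cannot be read as particular to these genes. Whether fewer cells of a type or less RNA per cell lies behind a level cannot be told apart in whole lung.

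Scgb1a1 encodes the club cell secretory protein, the most abundant secretion of these cells. The log2 ratio of Scgb1a1 was 4.29, 4.13, 5.38, 4.66 and 4.39 in the control dams and 4.82, 5.01, 4.45, 4.88 and 4.81 in the low-dose dams. It was 4.84, 4.44, 4.40, 5.17 and 5.46 in the medium-dose dams and 4.70, 4.42, 5.12, 4.92 and 4.40 in the high-dose dams. The groups overlapped throughout, and the highest control, dam 14, lay above every high-dose dam. The difference of high dose minus control was 0.14 ± 0.22 (SE), with a 95% interval of -0.32 to 0.60 (adjusted p = 0.798, limma). The interval bounds a fold of 0.801 to 1.52.

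Scgb3a2 encodes another secretoglobin of club cells, and its log2 ratio varied least between dams among the 8. Log2 ratios of Scgb3a2 were 6.47, 6.21, 6.89, 6.45 and 6.26 in the control dams and 6.69, 6.78, 6.29, 6.57 and 6.63 in the low-dose dams. They were 7.04, 6.19, 6.14, 6.79 and 6.99 in the medium-dose dams and 6.40, 6.19, 6.97, 6.72 and 6.58 in the high-dose dams. High-dose dams averaged 6.57 ± 0.30 and control dams 6.46 ± 0.27 (SD, n = 5 each), a difference of 0.12 ± 0.18 (SE) with an interval of -0.25 to 0.49 (adjusted p = 0.791, limma).

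Cyp2f2 is the club cell cytochrome P450 that activates naphthalene. Cyp2f2 had log2 ratios of 3.87, 3.90, 5.21, 4.39 and 3.81 in the control dams and 4.75, 4.73, 3.90, 4.89 and 4.36 in the low-dose dams. They were 4.50, 4.11, 3.97, 4.92 and 5.21 in the medium-dose dams and 4.56, 4.35, 4.59, 4.63 and 3.85 in the high-dose dams. Control dam 14 was again the highest of its group, at a level matched only by medium dam 50, and the other 4 controls lay between 3.81 and 4.39. High dose minus control was 0.16 ± 0.27 (SE), with an interval of -0.40 to 0.72 (adjusted p = 0.812, limma).

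Scgb3a1 is a secretoglobin known from larger airways. The log2 ratio of Scgb3a1 was 3.57, 3.51, 2.67, 3.49 and 3.26 in the control dams and 4.06, 3.91, 2.82, 2.79 and 3.65 in the low-dose dams. It was 4.09, 3.23, 2.18, 2.64 and 2.55 in the medium-dose dams and 1.88, 3.67, 3.46, 3.65 and 3.66 in the high-dose dams. High dam 60 was the lowest of all 20 dams, while the other 4 high-dose dams fell within a narrow band from 3.46 to 3.67. The difference of high dose minus control was -0.03 ± 0.37 (SE), with an interval of -0.80 to 0.73 (adjusted p = 0.977, limma), and without high dam 60 it was 0.32.

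Muc5b, the gel-forming mucin of the resting airway, had the largest difference at any dose in this set. Muc5b had log2 ratios of 3.34, 3.41, 1.38, 2.56 and 2.60 in the control dams and 2.81, 2.85, 0.92, 0.84 and 2.51 in the low-dose dams. They were 3.83, 1.94, 0.68, 1.08 and 0.92 in the medium-dose dams and 0.59, 2.57, 2.20, 2.45 and 3.29 in the high-dose dams. In the medium-dose group 3 dams lay below all 5 controls, whereas medium dam 46 was the highest of all 20. Medium dose minus control was -0.97 ± 0.59 (SE), with an interval of -2.21 to 0.27 (adjusted p = 0.469, limma). High-dose dams averaged 2.22 ± 1.00 and control dams 2.66 ± 0.82 (SD, n = 5 each), a difference of -0.44 ± 0.59 (SE) (adjusted p = 0.759, limma), which became -0.0292 without high dam 60 and -0.755 without control dam 14. Of the 3 low medium-dose dams, 49 and 50 were on a slide that held no other group, and with slide as a block the medium difference was -0.45 ± 0.61 (SE).

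The spots described as mucin 5AC differed little between groups. A_51_P102883 averaged 0.34 ± 0.23 in high-dose and 0.38 ± 0.18 in control dams (SD, n = 5 each), and A_51_P426130 averaged 0.10 ± 0.10 in high-dose and 0.09 ± 0.11 in control dams. Their high minus control differences were -0.04 ± 0.14 (SE) and 0.01 ± 0.06 (SE), with intervals of -0.34 to 0.25 and -0.12 to 0.14.

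Bpifa1, listed as Plunc on the array, encodes a surfactant-like defence protein of the upper and larger airways. Log2 ratios of Bpifa1 were 3.68, 3.60, 1.38, 3.28 and 2.71 in the control dams and 4.14, 4.07, 1.87, 2.56 and 3.20 in the low-dose dams. They were 4.31, 3.18, 1.55, 1.88 and 2.38 in the medium-dose dams and 1.14, 3.72, 1.99, 1.94 and 3.89 in the high-dose dams. Each group held dams both above 3 and below 2.8, and 3 of the 5 high-dose dams were under 2. High dose minus control was -0.39 ± 0.60 (SE), with an interval of -1.66 to 0.87 (adjusted p = 0.793, limma). It was -0.0458 without high dam 60 and -0.783 without control dam 14.

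Reg3g encodes a C-type lectin that kills Gram-positive bacteria. The log2 ratio of Reg3g was 3.1, 3.24, 0.17, 2.04 and 1.74 in the control dams and 2.90, 3.04, 0.44, 0.61 and 1.59 in the low-dose dams. It was 4.05, 1.95, 0.26, 0.29 and 0.26 in the medium-dose dams and 0.14, 2.67, 1.21, 1.27 and 3.53 in the high-dose dams. Every group held dams near 0 or below 0.7 and dams above 2.6, so the groups covered nearly the same range. High dose minus control was -0.30 ± 0.78 (SE), with an interval of -1.93 to 1.34 (adjusted p = 0.888, limma), which spans folds of 0.263 to 2.52. It was 0.11 without high dam 60 and -0.769 without control dam 14. At the lowest ratios the Cy5 signal was 101 to 135 units over a local background of 76 to 88 units at the same spots, so those values lie close to the floor of the scanner. Cy5 was well above background on 19 of 20 arrays, with control dam 14 the exception.

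Pigr, the receptor that carries polymeric IgA across the epithelium, had the smallest p at the high dose among the 8 genes. For Pigr the log2 ratio was 2.57, 2.56, 2.20, 2.45 and 2.39 in the control dams and 2.44, 2.85, 2.20, 1.93 and 1.89 in the low-dose dams. It was 2.68, 2.68, 1.53, 1.88 and 1.58 in the medium-dose dams and 2.11, 3.23, 3.28, 2.86 and 2.66 in the high-dose dams. In the high-dose group 4 of 5 dams lay above all 5 controls, and high dam 60 lay below them all. High-dose dams averaged 2.83 ± 0.48 and control dams 2.44 ± 0.15 (SD, n = 5 each), a difference of 0.39 ± 0.25 (SE) with an interval of -0.12 to 0.90 (adjusted p = 0.43, limma). Medium dose minus control had the other sign, -0.37 ± 0.25 (SE) (adjusted p = 0.514). Within slides that held both groups, high-dose dams exceeded their control on 4 of 5 slides, with differences from -0.46 to 1.08. On the Cy5 signal alone the high-dose difference was 0.92 ± 0.36 (SE), with an unadjusted p of 0.0197 and an adjusted p of 0.96 in limma.

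**Figure D1:**
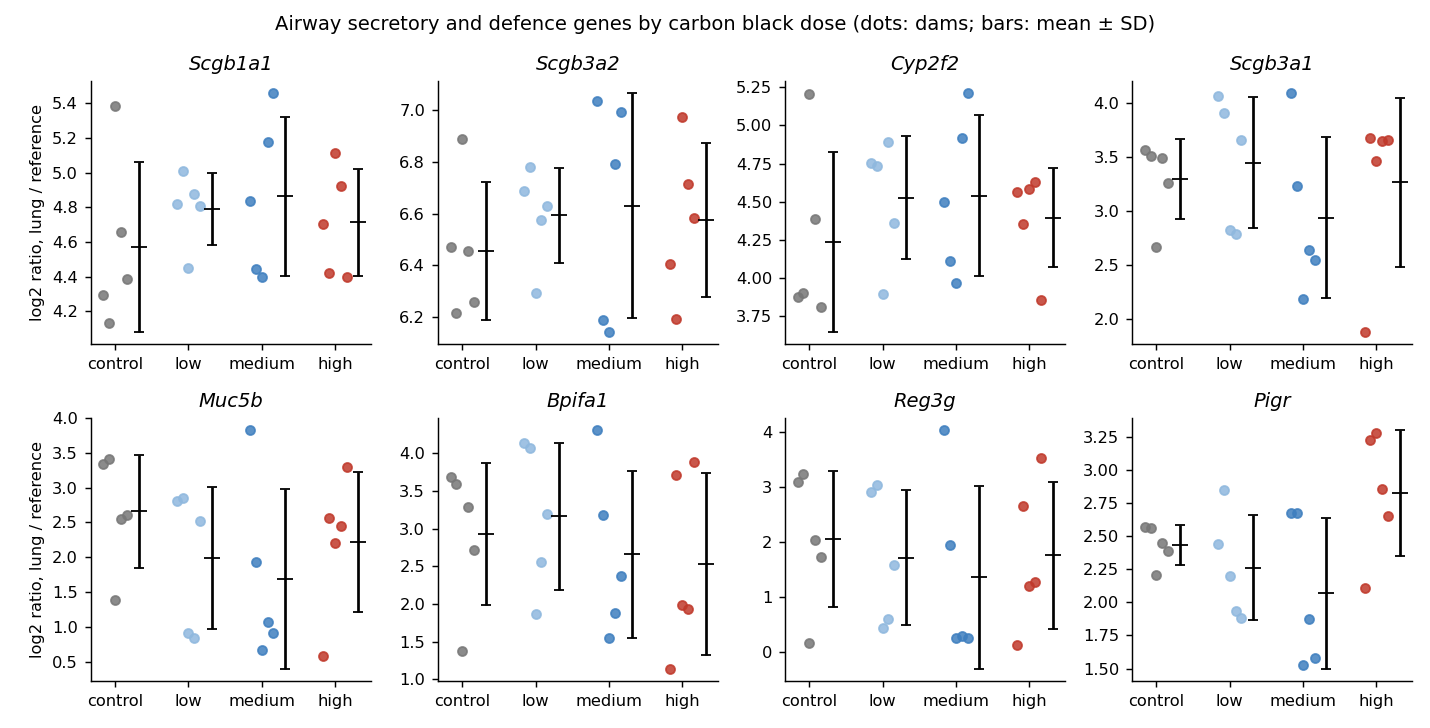
Log2 ratio of lung over reference (y axis) for the 8 genes in control, low, medium and high-dose dams (x axis, 5 dots each; bars are mean ± SD). High dam 60 is the low dot in the Scgb3a1 panel at 1.88, and 4 of 5 high-dose dams stand above all controls for Pigr.

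**Figure D2:**
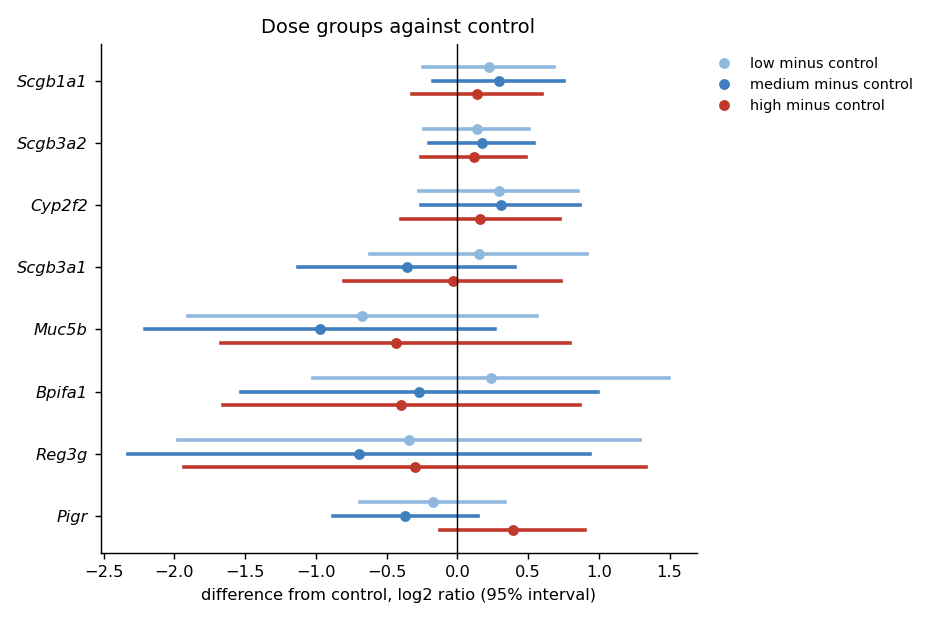
Difference of each dose group from control on the log2 ratio scale (x axis) per gene (y axis), as points with 95% intervals from the limma fit. Each of the 24 intervals crosses 0, and those of Muc5b, Bpifa1 and Reg3g are the widest.

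Over the 8 genes, 4 differences were positive and 4 negative at the high dose, with a median of 0.04, beside a median of -0.01 over all 30142 sequences. At the medium dose 3 were positive and 5 negative (median -0.31, beside 0.01 over all), and at the low dose 5 were positive and 3 negative (median 0.14, beside 0.00127 over all). Groups share the control dams, so the 3 sets of differences are not independent of each other.

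The log2 ratios of these genes differed widely between dams of the same group. The within-group SD of Reg3g was 1.38 on the log2 scale, 11.5 times the median of 0.12 over all 30142 sequences, and only 6 sequences had a larger one. It was 1.07 for Bpifa1 (36 sequences larger), 1.04 for Muc5b (40 larger), 0.65 for Scgb3a1 (182 larger) and 0.47 for Cyp2f2 (386 larger). Pigr (0.43), Scgb1a1 (0.39) and Scgb3a2 (0.31) varied less, with 502, 657 and 1248 sequences above them. The genes were described with these values known, so their place in the order is a description.

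For several genes the Cy3 signal of the same spot was high and low on the same arrays as the Cy5 signal, although the reference RNA was common to all arrays, so the ratio covered a narrower range than Cy5. The Cy5 signal of Scgb3a1, in scanner units without background subtraction, was 78792, 75566, 1032, 10521 and 9419 in control dams and 44773, 33593, 2769, 1552 and 10518 in low-dose dams. It was 101379, 7513, 1008, 1099 and 845 in medium-dose dams and 585, 33540, 6301, 13944 and 78734 in high-dose dams. These values covered a 173-fold range, from high dam 60 to medium dam 46. The Cy3 signal of the same spot ranged over 59.2-fold, from 64 to 3790, and correlated with Cy5 at r = 0.99 and rho = 0.98 over the 20 arrays (adjusted p = 1.85e-05 for r, permutation test). The ratio therefore covered 4.64-fold.

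Bpifa1 behaved likewise, with a Cy5 range of 279-fold, a Cy3 range of 50.02-fold and a ratio range of 9.04-fold. Reg3g covered 105.5-fold in Cy5, 7.43-fold in Cy3 and 15.03-fold in the ratio, and Muc5b 27.5-fold, 2.62-fold and 9.44-fold. Pigr covered 9.29-fold in Cy5 and 2.53-fold in Cy3. Scgb1a1, Scgb3a2 and Cyp2f2 showed the reverse, with a wider range in the reference channel than in the lung channel. The Cy5 signal of Scgb1a1 ranged 1.6-fold, from 271175 to 434772, and its Cy3 signal 2.76-fold. Cyp2f2 ranged 2.26-fold in Cy5 and 5.12-fold in Cy3, and its log2 ratio followed Cy3 inversely (r = -0.93, rho = -0.92, adjusted p = 1.85e-05, permutation test), while its relation with Cy5 did not pass (r = -0.35, rho = -0.24, adjusted p = 0.137). For Scgb1a1 the ratio followed Cy3 at r = -0.82 and rho = -0.85. Over all sequences tested the median correlation of the channels was 0.62. Cy3 was well above background on 15 of 20 arrays for Bpifa1, 13 for Muc5b and 12 each for Reg3g and Pigr. The lowest Cy3 signals of these 4 genes thus lie near the floor of the reference channel, which limits their Cy3 ranges and their ratios. The cause of the shared movement of the channels was not tested. No spot of these genes was marked saturated in Cy5, and saturation marks in Cy3 were not counted.

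**Figure D3:**
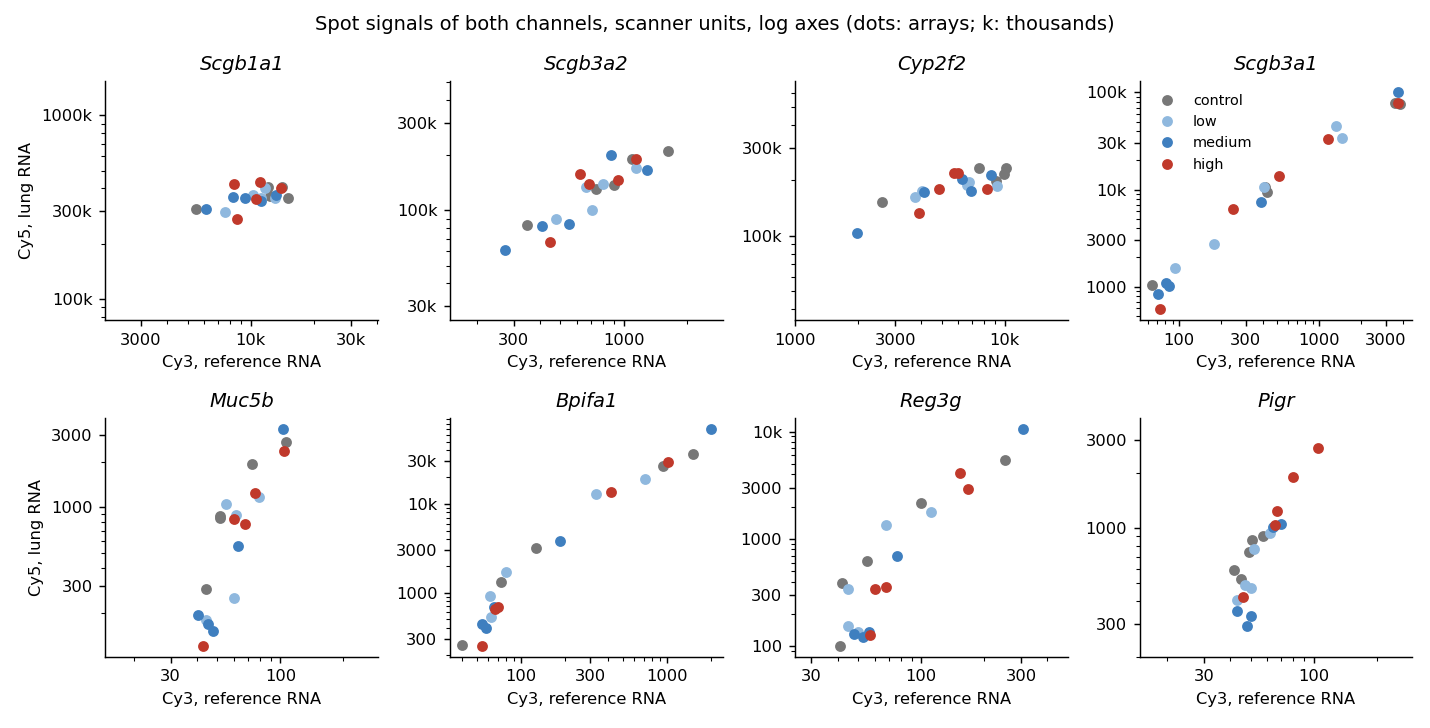
Cy5 signal of lung RNA (y axis) against Cy3 signal of reference RNA (x axis), scanner units on log axes, 1 dot per array, by dose group. Scgb3a1 and Bpifa1 run along a diagonal over more than a 50-fold range of Cy3, whereas Scgb1a1 is nearly flat in Cy5.

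Scgb3a1, Muc5b, Bpifa1 and Reg3g were high or low in the same dams. Pearson's r was tested for all 28 pairs of the 8 genes over the 20 dams with 100000 permutations and Benjamini-Hochberg adjustment over the pairs, and 12 pairs passed, all positive. The 6 pairs among these 4 genes had r from 0.83 to 0.94 and rho from 0.86 to 0.94 (adjusted p at most 7e-05 for r). The closest was Muc5b with Reg3g (r = 0.94, rho = 0.94), which kept r = 0.93 without the 2 dams farthest from the median of Muc5b. Removal of slide means gave r from 0.73 to 0.92 over the 6 pairs, and the Cy5 signal alone 0.88 to 0.97. Within the 8 arrays of the first scan batch r lay between 0.87 and 0.997, and within the 7 of the second between 0.44 and 0.92. The grouping into sets was made after the correlations were seen.

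Scgb1a1, Scgb3a2 and Cyp2f2 formed a second set on the ratio scale, with r of 0.85 for Scgb1a1 with Scgb3a2, 0.93 for Scgb1a1 with Cyp2f2 and 0.73 for Scgb3a2 with Cyp2f2 (rho 0.82, 0.92 and 0.68, adjusted p at most 0.00106 for r). Without the 2 farthest dams r was 0.76 to 0.89 and with slide means removed 0.71 to 0.95. In the first scan batch r was 0.59 to 0.93 and in the second 0.80 to 0.94. On the Cy5 signal alone 1 of the 3 pairs passed over the 20 arrays. There Scgb1a1 had r = 0.23 with Scgb3a2 (rho = 0.21, adjusted p = 0.392) and 0.46 with Cyp2f2 (rho = 0.52, adjusted p = 0.0616), while Scgb3a2 with Cyp2f2 gave 0.72. Within the scan batches, however, the 3 Cy5 values of r were 0.52 to 0.85 in the first and 0.85 to 0.93 in the second. Scgb3a2 also followed Scgb3a1 (0.93), Muc5b (0.95), Bpifa1 (0.85) and Reg3g (0.88) in Cy5, pairs that gave -0.02 to 0.20 on the ratio. Cyp2f2 passed in Cy5 with Scgb3a1 (r = 0.57, rho = 0.58, adjusted p = 0.0148, permutation test) and Muc5b (r = 0.61, rho = 0.55, adjusted p = 0.00887). In Cy5 alone 6 of the 12 pairs between the sets thus passed.

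None of the 12 pairs between the sets passed on the ratio scale (r from -0.45 to 0.20, lowest adjusted p = 0.102), with r from -0.25 to 0.46 in the first scan batch and -0.22 to 0.53 in the second. Pigr passed with Scgb3a1 (r = 0.68, rho = 0.66), Muc5b (r = 0.65, rho = 0.59) and Reg3g (r = 0.61, rho = 0.61), at adjusted p of 0.00308, 0.00687 and 0.0125, and not with Bpifa1 (r = 0.45, rho = 0.50, adjusted p = 0.102). With slide means removed the pair of Pigr and Reg3g no longer passed (r = 0.51, adjusted p = 0.0521), and Scgb3a2 with Scgb3a1 did (r = 0.60, adjusted p = 0.0103).

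**Figure D4:**
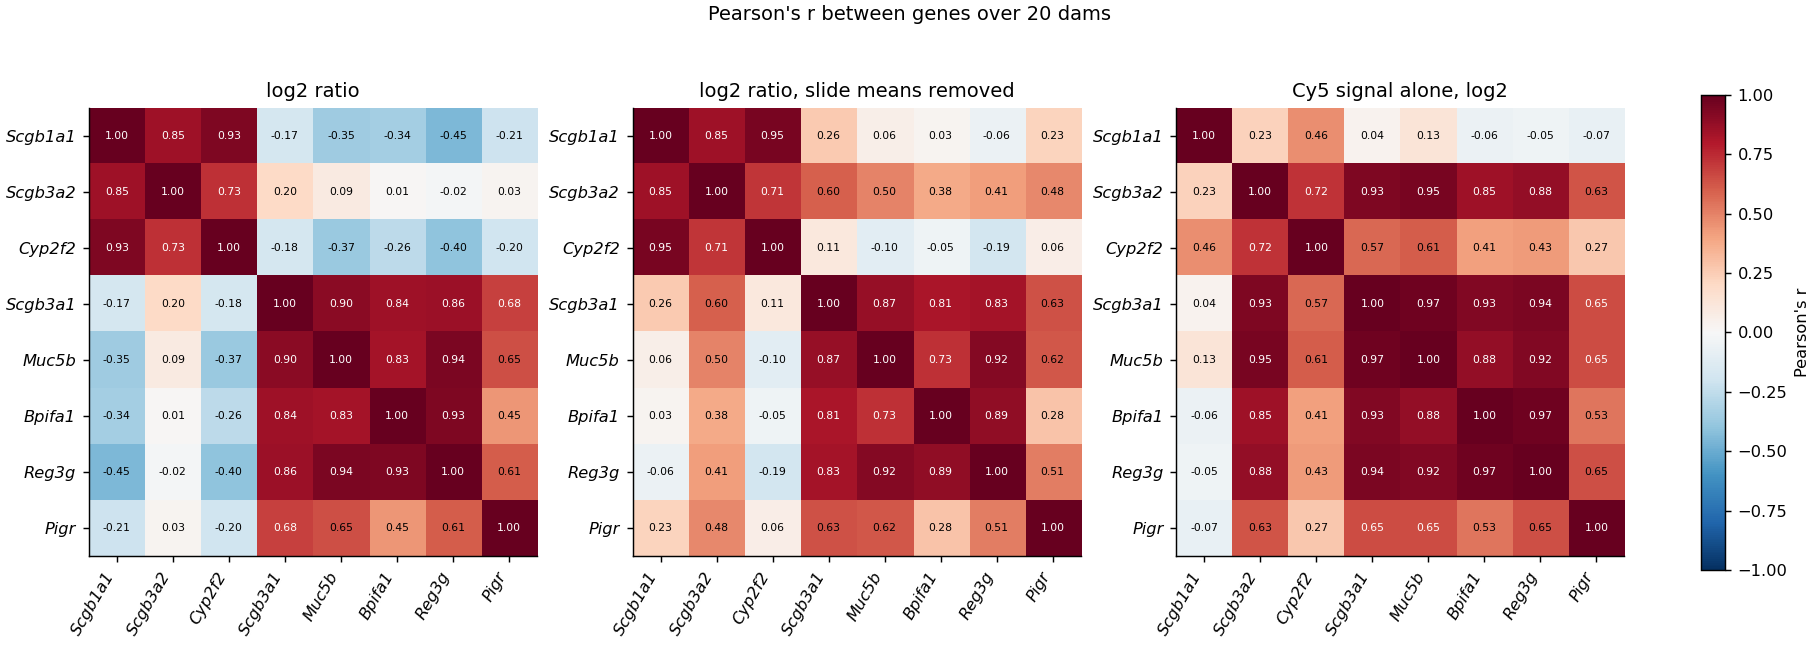
Pearson's r between the 8 genes over 20 dams, for the log2 ratio, the ratio with slide means removed and the log2 Cy5 signal alone (red positive, blue negative). Scgb3a1, Muc5b, Bpifa1 and Reg3g are red in all 3 panels, and Scgb3a2 and, more weakly, Cyp2f2 are red with them in the Cy5 panel.

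Levels also differed between array slides. Reg3g averaged 2.55, 2.72, 0.52, 1.31, 2.28 and 0.27 on slides 1 to 6, and Muc5b 2.64, 2.69, 1.30, 1.95, 2.80 and 1.00. Slides 1 to 3 held all 4 groups, slides 4 and 5 lacked the medium dose and slide 6 held medium dams 49 and 50 alone. Position on the slide followed the dose group except on slide 6, so position and dose cannot be told apart. With slide as a block none of the 8 genes passed, while 1177 of 30142 sequences passed. The high-dose differences were the same to 2 decimals. The design fixed this, since slides 1 to 5 each held 1 high-dose and 1 control dam. The adjusted p of these differences lay between 0.313 for Pigr and 0.969 for Scgb3a1 (limma).

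Markers of heart muscle moved with the same 4 genes. The mean log2 ratio of 5 heart muscle markers, all 5 measured and all well above background in some dam of every group, ran from 0.80 to 2.83 in control dams, 0.96 to 2.72 in low-dose dams, 0.63 to 3.00 in medium-dose dams and 1.53 to 3.18 in high-dose dams. It correlated with Muc5b (r = 0.80, rho = 0.76, adjusted p = 0.00128), Reg3g (r = 0.74, rho = 0.75, adjusted p = 0.0023), Scgb3a1 (r = 0.73, rho = 0.76, adjusted p = 0.0023) and Bpifa1 (r = 0.60, rho = 0.62, adjusted p = 0.0181) in permutation tests adjusted over 32 relations of 4 marker lists with the 8 genes. Without the 2 farthest dams r was 0.78, 0.68, 0.68 and 0.55 in that order of genes. With slide means removed it was 0.73, 0.63, 0.65 and 0.40. In the first and second scan batch Muc5b gave 0.67 and 0.77, Reg3g 0.61 and 0.76, Scgb3a1 0.47 and 0.81, and Bpifa1 0.46 and 0.43. The part of this in the spread was not tested. Other tissue markers did not all move this way. The mean of 3 markers of thyroid, thymus and oesophagus, outside the tested relations, had r of -0.37 with Scgb3a1, -0.18 with Muc5b, -0.04 with Bpifa1 and -0.05 with Reg3g. With slide means removed these were -0.51, -0.28, -0.23 and -0.24.

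The mean of 18 ciliated cell markers followed Scgb3a1 (r = 0.64, rho = 0.55, adjusted p = 0.00924) and Muc5b (r = 0.62, rho = 0.61, adjusted p = 0.0126). It also passed with Scgb3a2 (r = 0.55, rho = 0.49, adjusted p = 0.0315 for r and 0.0696 for rho) and Pigr (r = 0.55, rho = 0.58, adjusted p = 0.0315). In the first and second scan batch these 4 relations gave 0.53 and 0.90 for Scgb3a1, 0.66 and 0.82 for Muc5b, 0.70 and 0.79 for Scgb3a2, and -0.09 and 0.87 for Pigr, which thus did not hold in the first. Without the 2 farthest dams they were 0.69, 0.65, 0.37 and 0.72. The list mean spanned 2.40 to 2.72 in control, 2.39 to 2.80 in low-dose, 2.05 to 2.81 in medium-dose and 2.27 to 2.82 in high-dose dams. Markers of tracheal cartilage, 3 of 6 measured, gave no relation with the 8 genes that passed (r from -0.10 to 0.19, lowest adjusted p = 0.595). The mean of 7 alveolar type 1 markers followed Scgb1a1 (r = 0.91, rho = 0.88) and Cyp2f2 (r = 0.88, rho = 0.90), each at adjusted p = 0.00016, and Scgb3a2 (r = 0.66, rho = 0.64, adjusted p = 0.00736). It ran inversely to Reg3g (r = -0.65, rho = -0.64, adjusted p = 0.0091) and Muc5b (r = -0.61, rho = -0.55, adjusted p = 0.0164). Within the scan batches r stayed at 0.62 or more for Scgb1a1, Cyp2f2 and Scgb3a2, but was -0.28 and -0.34 for Reg3g and -0.35 and -0.11 for Muc5b. Without the 2 farthest dams r was 0.87, 0.85, 0.56, -0.58 and -0.50 for Scgb1a1, Cyp2f2, Scgb3a2, Reg3g and Muc5b. The mean of 9 alveolar type 2 markers, outside the tested relations, moved much the same way. It had r of 0.87 with Scgb1a1, 0.95 with Cyp2f2 and 0.62 with Scgb3a2, and of -0.52 with both Reg3g and Muc5b. Removal of slide means gave 0.88, 0.96, 0.58, -0.31 and -0.25 in that order. The relations were thus not particular to type 1 markers. All these list relations were on the ratio, and Cy5 alone was not examined for the lists. The ratios of Scgb1a1 and Cyp2f2 followed Cy3 inversely (r = -0.82 and -0.93), and their relations with Cy5 did not pass. Hopx, a type 1 marker, had r of 0.95 with Scgb1a1 on the ratio but -0.12 in Cy5 alone. None of these lists had a gene that passed at the high dose.

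**Figure D5:**
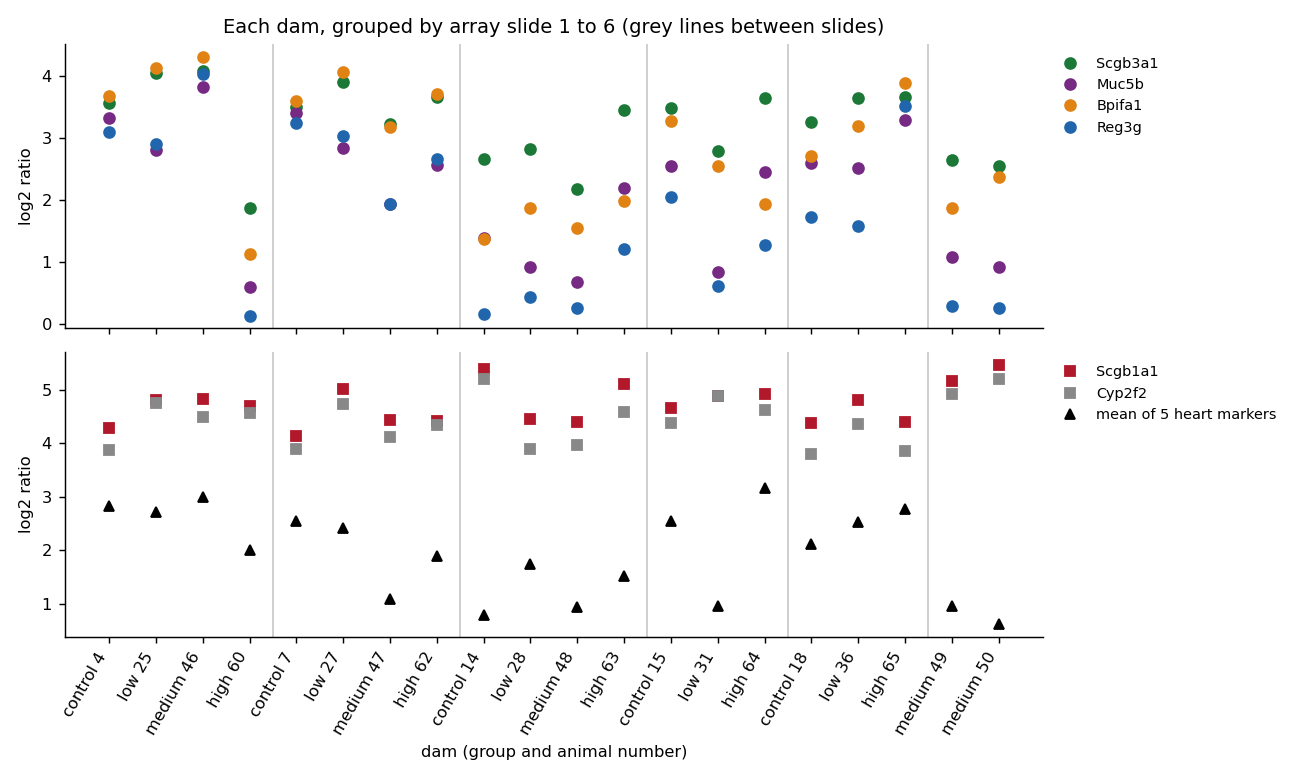
Log2 ratio (y axis) of Scgb3a1, Muc5b, Bpifa1 and Reg3g (upper panel) and of Scgb1a1, Cyp2f2 and the mean of 5 heart markers (lower panel) in each of the 20 dams (x axis), ordered by slide 1 to 6. The 4 upper genes are low together in high dam 60 and on slide 6, where Reg3g averaged 0.27.

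The genes most like each member were named by Pearson's r over the 20 arrays among 15619 genes with a symbol, as a description. Reg3g was closest to Bpifb1 (0.99), a relative of Bpifa1, to A2ml1 (0.98) and to the mucosal trefoil peptide Tff2 (0.96). Muc5b was closest to Tff2 (0.96), Tmc5 (0.95) and Bpifb1 (0.95), and Bpifa1 to Bpifb1 (0.93), A2ml1 (0.89) and Tff2 (0.86). Scgb3a1 was closest to Cfd, the adipocyte protease adipsin (0.97), then to Tff2 (0.90) and Bpifb1 (0.90). On the Cy5 signal alone these 12 values lay between 0.92 and 0.98.

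For Cyp2f2 and Scgb1a1 the likeness was lower in Cy5 alone than in the ratio. Cyp2f2 was closest to Lyz2 (0.99), Wfdc2 (0.99) and Inmt (0.98), but in Cy5 alone these gave -0.10, 0.52 and -0.18. Scgb1a1 was closest to Sec14l3, Sftpd, the collectin surfactant protein D, and Hopx (0.96, 0.96 and 0.95), which in Cy5 gave 0.32, 0.36 and -0.12. Scgb3a2 was closest to Depp1 (0.90), Tmem212 (0.86) and Cldn3 (0.86), with 0.72, 0.86 and 0.56 in Cy5. Pigr was closest to Cp, the copper carrier ceruloplasmin (0.89), Dennd2d (0.88) and Adam8 (0.88), with 0.85, 0.74 and 0.83 in Cy5. None of these genes passed at the high dose, where the lowest adjusted p was 0.302 (Cp, limma).

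Some other genes of the same pathways passed the test at the high dose. In the list of IgA production and transport, 2 of 11 measured genes were called, both higher, beside 0.71% higher over all sequences. The median difference was 0.19, beside -0.01 over all. Jchain, the chain that joins IgA into the polymers carried by Pigr, had log2 ratios of -0.25, 0.38, 0.05, -1.13 and -0.15 in high-dose dams, against -0.66, -2.34, -1.95, -2.58 and -2.47 in control dams. The difference was 1.78 ± 0.36 (SE, adjusted p = 0.0194, limma), and only control dam 4 overlapped the high-dose range. Tnfrsf17, the plasma cell receptor BCMA, was higher by 0.82 ± 0.17 (SE, adjusted p = 0.0207). The next in the list, Ccr10 (0.19, adjusted p = 0.117, well above background in 4 of 5 high-dose and 1 of 5 control dams) and Tnfrsf13b (0.25, adjusted p = 0.322), did not pass.

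Of 12 measured genes of the IL-17 and IL-22 response, 3 were higher at the high dose and 0 lower, beside 0.71% higher and 0.644% lower over all sequences. The list median was 0.31, beside -0.01 over all. Cxcl5, a neutrophil chemokine of epithelium, was -1.75, 0.82, 0.84, -1.62 and -0.68 in high-dose dams, against -3.47, -3.16, -3.53, -3.81 and -3.47 in control dams, with no overlap and an 8.04-fold difference (3.01 ± 0.37 SE, adjusted p = 0.00174). Saa3, an acute phase apolipoprotein, was -2.18, -0.37, 1.42, -0.61 and 0.23 in high-dose dams, against -2.52, -2.52, -2.09, -2.95 and -2.51 in control dams, a difference of 2.22 ± 0.43 (SE, adjusted p = 0.0164). High dam 60 was the lowest of its group for both and was within the control range for Saa3. Ccl20, an epithelial chemokine for lymphocytes and dendritic cells, was well above background in Cy5 in 0 of 5 control, 2 of 5 low-dose, 1 of 5 medium-dose and 4 of 5 high-dose dams. It was therefore measured in 4 of 5 high-dose dams and not in the controls. After loess and Aquantile normalisation the mean Cy5 signal of the high-dose dams, dam 60 included, was 1.29-fold that of the controls. The control signals were not well above background, so this ratio of spot signals is neither a measured fold nor a lower limit. It is also open to dye bias without a dye swap. On the log2 ratio the adjusted p was 0.0181 in limma. Ccl20 passed the filter on dim spots only through the high-dose group, as did Il22ra2 in the same list (0 of 5 controls, adjusted p = 0.846). Without both genes the list held 2 called of 10, with the same median to 2 decimals. Stat3 did not pass (0.32, adjusted p = 0.0893).

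Among 19 measured mucosal antimicrobial genes, 1 rose and 1 fell, beside 1.35% called over all sequences, with a list median of 0.03 (-0.01 over all). Lcn2, the siderophore-binding lipocalin, was 1.64, 3.12, 3.30, 2.43 and 2.57 in high-dose dams, against 1.65, 1.74, 1.85, 1.13 and 1.32 in control dams (1.08 ± 0.22 SE, adjusted p = 0.0228). Camp, the cathelicidin stored in neutrophil granules, was 0.67, 0.57, 0.85, 0.13 and 0.28 in high-dose dams, against 1.30, 1.91, 2.78, 1.03 and 2.10 in control dams, without overlap (-1.33 ± 0.29 SE, adjusted p = 0.0293). Slpi (0.57, adjusted p = 0.313) and S100a8 (-0.40, adjusted p = 0.59) did not pass. 

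Of these 7 calls, that of Cxcl5 held in every alternative that tested it, and the other 6 each ended in some. Normexp with loess ended 5 (adjusted p from 0.0674 for Saa3 to 0.24 for Camp), with Ccl20 still called. The software log ratio ended 6 (0.1 for Ccl20 to 0.364 for Camp), as did the fit of only the 2 groups (0.0704 for Jchain to 0.113 for Lcn2). Cy5 alone ended those of Lcn2 (0.0526), Saa3 (0.0528), Ccl20 (0.0622) and Camp (0.579). Without control dam 15 the calls of Saa3 (0.0526), Ccl20 (0.0551), Jchain (0.0626), Tnfrsf17 (0.0655) and Lcn2 (0.0697) were lost. Without control dam 18 those of Jchain (0.054), Tnfrsf17 (0.0567), Lcn2 (0.057) and Camp (0.0708) were lost. Without high dam 62 those of Ccl20 (0.0528), Jchain (0.0573), Tnfrsf17 (0.0625), Lcn2 (0.0671) and Camp (0.0634) were lost. Lcn2 also missed the threshold without high dam 63 (0.0547), and Camp without control dams 7 (0.0588) and 14 (0.0655) and without high dams 64 (0.0567) and 65 (0.0568).

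No gene passed among 20 measured club cell genes, 15 mucous cell genes, 15 genes of type 2 immunity and 20 regulators of secretory cells, with list medians of -0.06, 0.06, 0.04 and -0.04, beside -0.01 and 1.35% called over all sequences. The nearest in the mucous list was Slc26a4, the anion exchanger pendrin, at 3.43, 4.61, 4.91, 3.53 and 4.12 in high-dose dams, against 3.60, 2.99, 2.86, 0.98 and 2.83 in control dams (1.47 ± 0.40 SE, adjusted p = 0.0715), and it passed with slide as a block (adjusted p = 0.0255), with scan date as a block (0.0435) and without control dam 4 (0.046). After it came Fut2 (0.20), Ern2 (-0.15) and Tff1 (0.11, well above background in 5 of 5 high-dose and 2 of 5 control dams). The club cell list was led by Upk3a (0.26), Por (-0.18), Cyp2a5 (-0.42) and Pon1 (-0.22), at adjusted p of 0.313 or more. In type 2 immunity the smallest p-values were those of Il33 (0.55, adjusted p = 0.0832), Stat6 (-0.12), Il4 (-0.08) and Tslp (-0.14), and among regulators those of Jag2 (-0.24), Notch3 (-0.18), Elf3 (0.25) and Gata6 (0.15).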

How the data were processed

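The deposited data were a value table and 1 scanner spot file per array, from 2-colour Agilent mouse 4x44K arrays, with no dye swap. Per the labels, lung RNA (RNA integrity numbers 7.0 to 9) was in Cy5 and universal reference RNA in Cy3. The authors' deposited table holds log2 values whose scale and direction were settled by comparison with the scanner ratios (r from 0.962 to 0.993); column medians were -0.05 to -0.0315, no background had been subtracted, and the sources used here do not name its normalisation method. The deposited spot files hold intensity in scanner units and, per the file headers, a log10 ratio made by Feature Extraction 9.5.1.1 (18 arrays) or 10.1.1.1 (2 arrays), whereas the labels name 9.5.3.1. Between 63.3% and 77.8% of spot sequences were well above background per array, and the number of arrays limits the precision.

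Outlier spots were left out, spots of 1 sequence were averaged, and a sequence was kept when Cy5 was well above background on at least 3 of 5 arrays of a group, with values on at least 16 arrays. The fits used limma 3.58.1 (lmFit, eBayes) in R 4.3.3 over all 4 groups, and a separate fit with the dose step as a number gave the trend. Correlations used numpy 2.4.6 and scipy 1.17.1. For genes with several spot sequences the brightest was used in lists. Symbols were updated through RefSeq (GRCm38.p6): 22951 sequences by accession, 6659 by symbol, 3109 by synonym, and 8455 kept the file's name. The fit was tested on simulated data.

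The named genes were all members, the 4 genes with the smallest high-dose p per pathway list, and the 3 most alike genes per member. Members and lists were chosen with earlier results of these data known. No animal number was shared between groups. Alternatives covered background correction, normalisation, filters, slide and scan date as blocks, and omission of each dam. The labels do not say whether dams shared a cage within a group.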

Additional observations from a re-analysis of the deposited data

Results flagged for a closer look

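Scgb3a1 in high dam 60 stood apart from its group, with a log2 ratio of 1.88 beside 3.46 to 3.67 in the other 4 high-dose dams. The gap was 0.884 of the whole range of the group. It was the only such value among 32 groups of 5 dams examined, 4 for each of the 8 genes. Chance alone sets a value apart in about 1 group in 20, so 1 such value in 32 groups is no more than chance would give. The groups are not independent, since several of the genes were low together in high dam 60. The cause of the low value was not tested.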

How the results depend on the processing

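None of the 8 genes passed at any dose or along the dose steps in the alternatives run, 32 for the doses and 31 for the dose steps (0 in each; lowest adjusted p 0.218, Pigr at the high dose). Reg3g was not tested under the filter that asks for all 20 arrays, and the fit of only 2 groups has no dose steps. The count of sequences passing at the high dose, 408, became 18 with normexp and loess, 13 with the software log ratio, 29 with Cy5 alone, 680 with no filter, 213 with all 20 arrays well above background, 210 with 1 sequence per gene, 1177 with slide and 821 with scan date as a block, and 58 with only the 2 groups, and 114 (without control dam 15) to 398 when a dam was left out. It fell by over 1.5 times without control dams 7 (219), 14 (252), 15 and 18 (178) and without high dams 62 (163) and 63 (220). The trend count of 506 became 0, 1, 3, 898, 260, 288, 1298 and 972 under the first 8 of these, and 189 to 661 by dam, falling by over 1.5 times without control dams 7 (305), 15 (189) and 18 (267) and high dams 62 (199) and 63 (287). The medium count of 1 became 0 with normexp, the software log ratio, Cy5 alone and only the 2 groups, 3 with arrays centred, 4 with no filter and 2 with slide, and 1 to 6 by dam. The low count of 1 became 0 with normexp, the software log ratio, Cy5 alone, slide and only the 2 groups, and 0 to 2 by dam. The cause was not tested.

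Signs turned for uncalled differences. With the software log ratio they were 0.0847 (Scgb3a1), 0.19 (Bpifa1), 0.0373 (Reg3g) and -0.0786 (Pigr) at the high dose and 0.11 (Muc5b) and 0.22 (Pigr) at the medium dose. With Cy5 alone they were -0.0318 (Cyp2f2) and 0.000595 (Reg3g), and with normexp 0.0262 (Scgb3a1). By dam, Scgb3a1 ran from -0.19 to 0.32, Reg3g from -0.77 to 0.11, Scgb1a1 from 0.0317 to 0.344, Scgb3a2 from 0.0171 to 0.224 and Cyp2f2 from 0.0546 to 0.405. Pairs passing numbered 12 with slide means removed and with normexp, and 18 with Cy5 alone; the last 2 were chosen after seeing the data. The groups share no animal number, so dams could be matched only by slide, as in the slide block. Cy5 signals near background limit Reg3g and Muc5b at their lowest values. Cy3 signals near background also limit Bpifa1, Muc5b, Reg3g and Pigr.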
